A study of Bos taurus with 8 samples.

Results

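Cytosolic ribosomal proteins were taken as every listed gene whose symbol is RPL or RPS with a number and at most a suffix, together with RPLP0, RPLP1, RPLP2 and RPSA. This rule found 83 genes of 32640 listed, 50 of the large subunit and 33 of the small subunit, and 80 of them passed the filter on low counts among 15744 genes tested. Their mRNAs were read by RNA sequencing in 4 bovine embryonic stem cell (bESC) lines, A, C, D and E, labelled XX and kept in 5% O2. Each line gave 1 library on MEF, a feeder layer of irradiated mouse embryonic fibroblasts, at passage 15 to 17, and 1 library feeder-free on vitronectin (VTN), a matrix protein, at passage 20 to 22. All lines had been derived on MEF from blastocysts in NBFR medium, which holds FGF2 and the WNT inhibitor IWR-1, and each stands for 1 embryo. Titles of all 8 samples name a medium with Activin A, which the methods add only to feeder-free culture, so matrix, passage and perhaps medium changed together. The question was how mRNAs of the ribosome differed between the conditions and between the lines.

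The ribosome has a small subunit, which reads the mRNA, and a large subunit, which forms peptide bonds. The mRNAs of its proteins are short, very abundant and carry a pyrimidine tract at the 5′ end through which mTOR and LARP1 control their translation. Ribosomal proteins are made in matched amounts, and some genes have a paralog that is used in particular tissues or conditions. Pluripotent stem cells divide fast and are known for a high rate of ribosome production.

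The 8 libraries held between 44268717 and 102351560 counts on genes, with the largest total in line D feeder-free, and TMM factors between 0.941 and 1.035. All 6 bESC markers were detected, with a summed level of 4012 to 4508 CPM (the count as a rate of the TMM-scaled library total) on MEF and 3496 to 3624 CPM feeder-free. All 15 fibroblast markers passed the filter too, at 1017 to 1244 CPM in sum on MEF and 722.1 to 1844 CPM feeder-free. In the feeder-free condition this sum was 722.1 CPM in line A, 810.5 in E, 1576 in C and 1844 in D, and its part in the results below was not tested. In bulk RNA, fewer cells of a type and less RNA per cell cannot be told apart.

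The 83 genes took 9.86% of all counts in line A, 9.35% in line E, 6.34% in line C and 5.44% in line D on MEF. Feeder-free, the shares were 12.8% in line A, 9.31% in E, 6.27% in C and 5.96% in D. Lines A and E thus lay above lines C and D in both conditions, and the order A, E, C, D was the same in both. The mean share was 7.75% ± 2.19 (SD, n = 4) on MEF and 8.58% ± 3.18 (SD, n = 4) feeder-free. The means thus differed by less than the SD between the lines of either condition. The largest difference between conditions was in line A, while the share in lines C and E was nearly level. Large subunit counts were 1.39 to 1.46 times small subunit counts in every library, so both subunits kept their proportion while the total differed. Mitochondrial genes took 4.11% and 4.01% of counts in line A on MEF and feeder-free, 3.73% in line E feeder-free and 1.91 to 2.87% in the other libraries. Without mitochondrial counts the ribosomal protein share ran from 5.54% in line D on MEF to 13.3% in line A feeder-free.

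**Figure D1:**
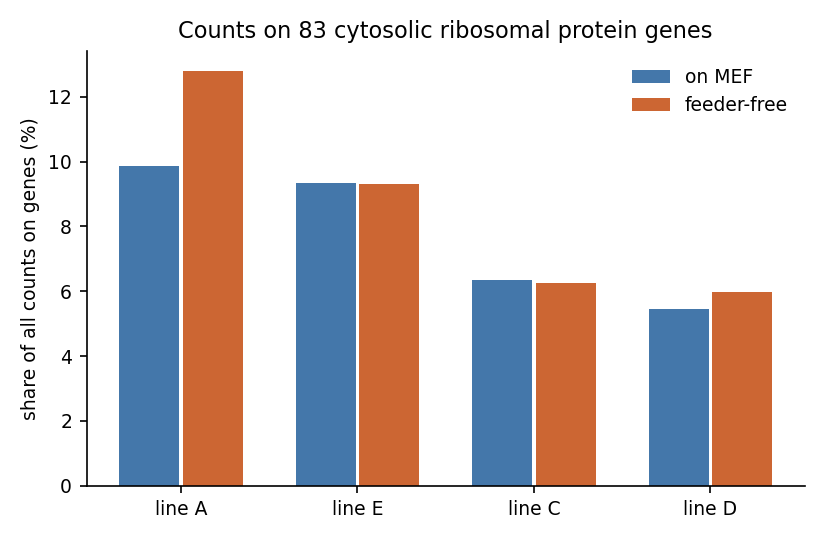
Share of all counts on genes, in percent, that fell on the 83 ribosomal protein genes. Each bar is 1 library, by line (x axis) and condition (colour). Both bars of lines A and E, from 9.31 to 12.8%, stand above those of lines C and D, from 5.44 to 6.34%.

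Between the conditions, the core ribosomal proteins (all tested members other than 6 paralogs) did not pass the test. Their fitted log2 fold changes, feeder-free over MEF, ran from -0.15 for RPSA to 0.45 for RPS24, with a median of 0.14 over 74 genes. In edgeR's quasi-likelihood test on condition alone, 1 of 80 members was called higher feeder-free. A call needed an adjusted p under 0.05 together with a change of 1.5-fold or more. Of all genes tested, 0.724% were higher and 1.00% lower by the same rule. The number of members called lower was 0, and 0 were lower at an unadjusted p under 0.05, while 3 (3.75%) were higher at that level, all paralogs. Of all genes tested, 11.4% were lower and 10.2% higher at that level. DESeq2 and limma-voom also called 0 members lower, beside 516 and 150 of all 15744 genes. With line as a term (replicate block), which uses the fact that the same 4 lines were cultured both ways, 3 members were higher and 0 lower, against 5.52% and 4.53% of all genes. The 3 were RPL7L1, RPS4Y1 and RPS27L, all of them paralogs of a core protein. Without the fold change threshold the paired fit added RPS24, and the background was then 7.67% higher and 8.12% lower. Of the 80 members, 67 had a log2 fold change above 0, or 83.8%, beside 50.6% of all genes tested. With the replicate block and a correction for gene span, 51 of 80 were above 0 and their median was 0.03. That lean rested on few libraries: the median of the members was 0.15, -0.14 with line A feeder-free left out and -0.02 without the MEF library of line D. By line, the median log2 ratio of the members was 0.35 in A, 0.25 in D, -0.01 in C and -0.04 in E. Only 14 members (17.5%) were higher in all 4 lines, beside 20.2% of all genes.

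RPL7L1 (chromosome 23 of ARS-UCD2.0, 16513241 to 16519583), a paralog of the large subunit protein RPL7, had the largest change among the members. On MEF it stood at 83.4 CPM in line A, 101 in C, 88.1 in D and 96.2 in E, and feeder-free at 175, 114, 149 and 159 CPM in the same order. Every feeder-free library lay above every MEF library, and line C moved least. The means were 92.1 ± 7.74 and 149 ± 25.7 CPM (SD, n = 4 each). On the log2 scale the fitted rise was 0.70 ± 0.15 (SE), with an adjusted p = 0.0486 in edgeR. The paired fit gave 0.68 (adjusted p = 0.0140). The unpaired call was lost without any 1 of the 8 libraries, over which the log2 fold change stayed between 0.61 and 0.81. Over all genes, the unpaired fit called 490 without line A feeder-free and at most 6 without any other library.

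RPS4Y1 (chromosome 23, 10550055 to 10565856) is named after the Y-linked human copy of the small subunit protein RPS4X, and in cattle lies on an autosome. Its levels on MEF were 78.1 CPM in line A, 103 in C, 91.2 in D and 79.4 in E, and feeder-free 99.4, 138, 157 and 156 CPM. It was higher in all 4 lines, although line A feeder-free lay below line C on MEF. The means were 87.9 ± 11.6 and 138 ± 26.9 CPM (SD, n = 4 each), with a log2 fold change of 0.65 (adjusted p = 0.0703 in edgeR), and the paired fit called it at 0.63 (adjusted p = 0.0129). RPS4X itself, on chromosome X, had 1337 ± 397 CPM on MEF and 1290 ± 380 CPM feeder-free (SD, n = 4 each), and its log2 fold change was -0.05 (adjusted p = 0.941).

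RPS27L (chromosome 10, 46889233 to 46892623), a paralog of RPS27 and a known target of p53, had 47.9 CPM in lines A and C, 33.7 in D and 66.4 in E on MEF. Feeder-free it had 77.4 CPM in A, 70.0 in C, 67.7 in D and 71.9 in E. The feeder-free libraries lay close together and above all MEF libraries, with line E moving least. Its log2 fold change was 0.55 (adjusted p = 0.125 in edgeR), and 0.59 in the paired fit (adjusted p = 0.0264). RPL7L1 and RPS27L were the 2 members whose libraries did not overlap between conditions with higher feeder-free values, as 6.21% of all genes did, and 0 members were lower in that way, beside 8.36%. The parent genes RPL7 and RPS27 had log2 fold changes of 0.15 and 0.25 (adjusted p = 0.796 and 0.754).

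The paired calls depended on line D, among the members as among all genes. Without either library of line D, 0 members passed the paired fit, which then called 729 or 750 genes in all. With a library of line A, C or E left out instead, it called between 1124 and 1630 genes in all. Without either library of line A only RPS4Y1 passed, without either of line C RPS4Y1 and RPL7L1, and without either of line E RPS27L and RPL7L1.

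The other paralogs did not pass. RPL22L1, the paralog of RPL22, had 177 ± 36.6 CPM on MEF and 199 ± 34.9 CPM feeder-free (SD, n = 4 each). RPL26L1, which differs little from RPL26, had 51.8 ± 14.0 and 56.3 ± 19.8 CPM. RPL3L, the form of RPL3 typical of striated muscle, was near the floor with 8 to 49 counts per library. RPL10L, known from testis, was listed at 0 in all 8 libraries, as were the core genes RPS23 and RPL37. RPS23 overlaps ATG10, and the cause of these zeros was not tested. Reads of near-identical copies can be split by alignment and counting, so the levels of paralogs are less certain.

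**Figure D2:**
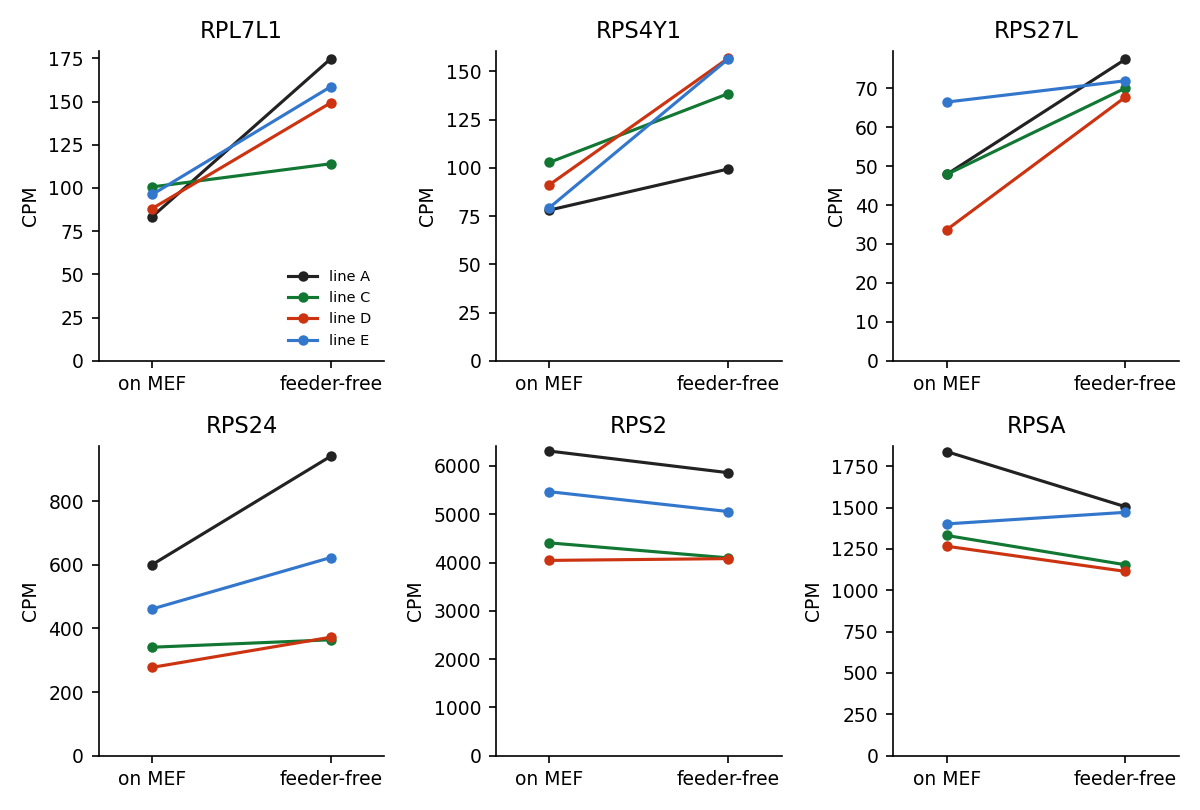
Levels in CPM (y axes from 0) of 6 members on MEF and feeder-free, with 1 line per bESC line joining its 2 libraries. RPL7L1, RPS4Y1, RPS27L and RPS24 were higher feeder-free in each of the 4 lines, whereas RPS2 and RPSA were higher in 1 of 4.

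RPS24 (chromosome 28, 33725422 to 33812933), a small subunit protein needed to process the 18S rRNA precursor and mutated in Diamond-Blackfan anemia, had the largest change of the core. It had 600 CPM in line A, 341 in C, 278 in D and 461 in E on MEF, and 941, 364, 372 and 623 CPM feeder-free. Each line was higher feeder-free, but the lines differed more than the conditions. Unpaired, its log2 fold change was 0.45 ± 0.34 (SE, adjusted p = 0.496). It was 0.40 ± 0.11 (SE, adjusted p = 0.0426) in the paired edgeR fit, short of the fold threshold. RPL31, a protein at the rim of the exit tunnel, had the next largest value of the core at 0.37 (adjusted p = 0.665), with a log2 ratio of 0.76 in line A and 0.002 in line C.

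At the other end stood RPSA, the small subunit protein also described as a laminin receptor precursor. It had 1838 CPM in line A, 1331 in C, 1266 in D and 1401 in E on MEF, and 1505, 1154, 1114 and 1471 CPM feeder-free. The conditions overlapped, and the fitted log2 fold change was -0.15 ± 0.17 (SE, adjusted p = 0.661). RPS29, a small zinc-binding protein of the small subunit, had -0.08 (adjusted p = 0.939). The proteins of the stalk that recruits translation factors did not pass either: RPLP0, its base, had -0.12, and RPLP1 and RPLP2, which bind to it, 0.13 and 0.19 (adjusted p = 0.857, 0.865 and 0.843).

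The members with the highest CPM, a scale not corrected for transcript length, were RPS2, RPL4, RPLP0, RPL7A and RPL13A. RPS2, a small subunit protein at the mRNA entry, had 5057 ± 1030 CPM on MEF and 4774 ± 856 CPM feeder-free (SD, n = 4 each). RPL4, which lines the exit tunnel, had 3119 ± 850 and 2974 ± 998 CPM. Log2 fold changes of RPS2 and RPL4 were -0.08 and -0.07, and those of RPL7A and RPL13A 0.04 and 0.02 (adjusted p = 0.857, 0.922, 0.964 and 0.989). RPL13A, which also serves outside the ribosome in silencing inflammatory mRNAs, went from 2739 to 3889 CPM in line A and from 3234 to 2200 CPM in line E, in opposite directions.

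Between the lines, by contrast, nearly the whole core differed. In an F test of the line term (3 coefficients, edgeR, with condition in the model), 72 of 80 members (90.0%) had an adjusted p under 0.05, beside 11.8% of all genes tested. This test was added after the levels by line had been seen, and each line has 2 libraries, so line, embryo and culture history cannot be told apart. The 8 members not called were the paralogs RPL7L1, RPS4Y1, RPS27L, RPL22L1 and RPL3L and the core proteins RPL28, RPSA and RPL10. The 3 members called between conditions in the paired fit were thus among the 8 not called between lines. Of the 74 core members, 73 had their highest line mean in A, with RPL12 highest in E, and 73 had their lowest in D, with RPS26 lowest in C. The range of the 4 line means had a median of 1.15 log2 units over the core, or 2.22-fold, beside 0.58 log2 units over all genes tested, and ran from 0.49 for RPSA to 1.66 for RPS21.

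RPS21, a small protein of the small subunit, differed most. It had 377 CPM in line A, 358 in E, 156 in C and 117 in D on MEF, and 517, 293, 165 and 167 CPM feeder-free. Lines A and E lay above lines C and D in both conditions, by a range of 3.16-fold between line means (adjusted p = 0.00221 for the line term). RPL39, a very short protein in the wall of the exit tunnel, had 362, 384, 161 and 131 CPM in lines A, E, C and D on MEF and 592, 335, 165 and 170 CPM feeder-free. Its range was 3.10-fold (adjusted p = 0.00225). RPL32, a large subunit protein, went from 1218 CPM in A to 421 CPM in D on MEF and from 1624 to 506 CPM feeder-free, with a range of 3.05-fold and the smallest adjusted p of the line term among the members, 0.000646. At the low end, RPS2 had a range of 0.58 log2 units and was still called (adjusted p = 0.0433), while RPL10 had 0.52 (adjusted p = 0.194).

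Neighbours in the order of the lines were not equally far apart. Both libraries of line E lay above both of line C for 73 of 74 core members, as for 21.2% of all genes. Both of line A lay above both of line E for 49, as for 13.0% of all genes. Both of line C lay above both of line D for 26, as for 15.4%, and all 74 had both libraries of A above both of D, as did 25.7% of all genes. The main step was thus between lines A and E on one side and lines C and D on the other, with the values of C and D overlapping for most members.

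**Figure D3:**
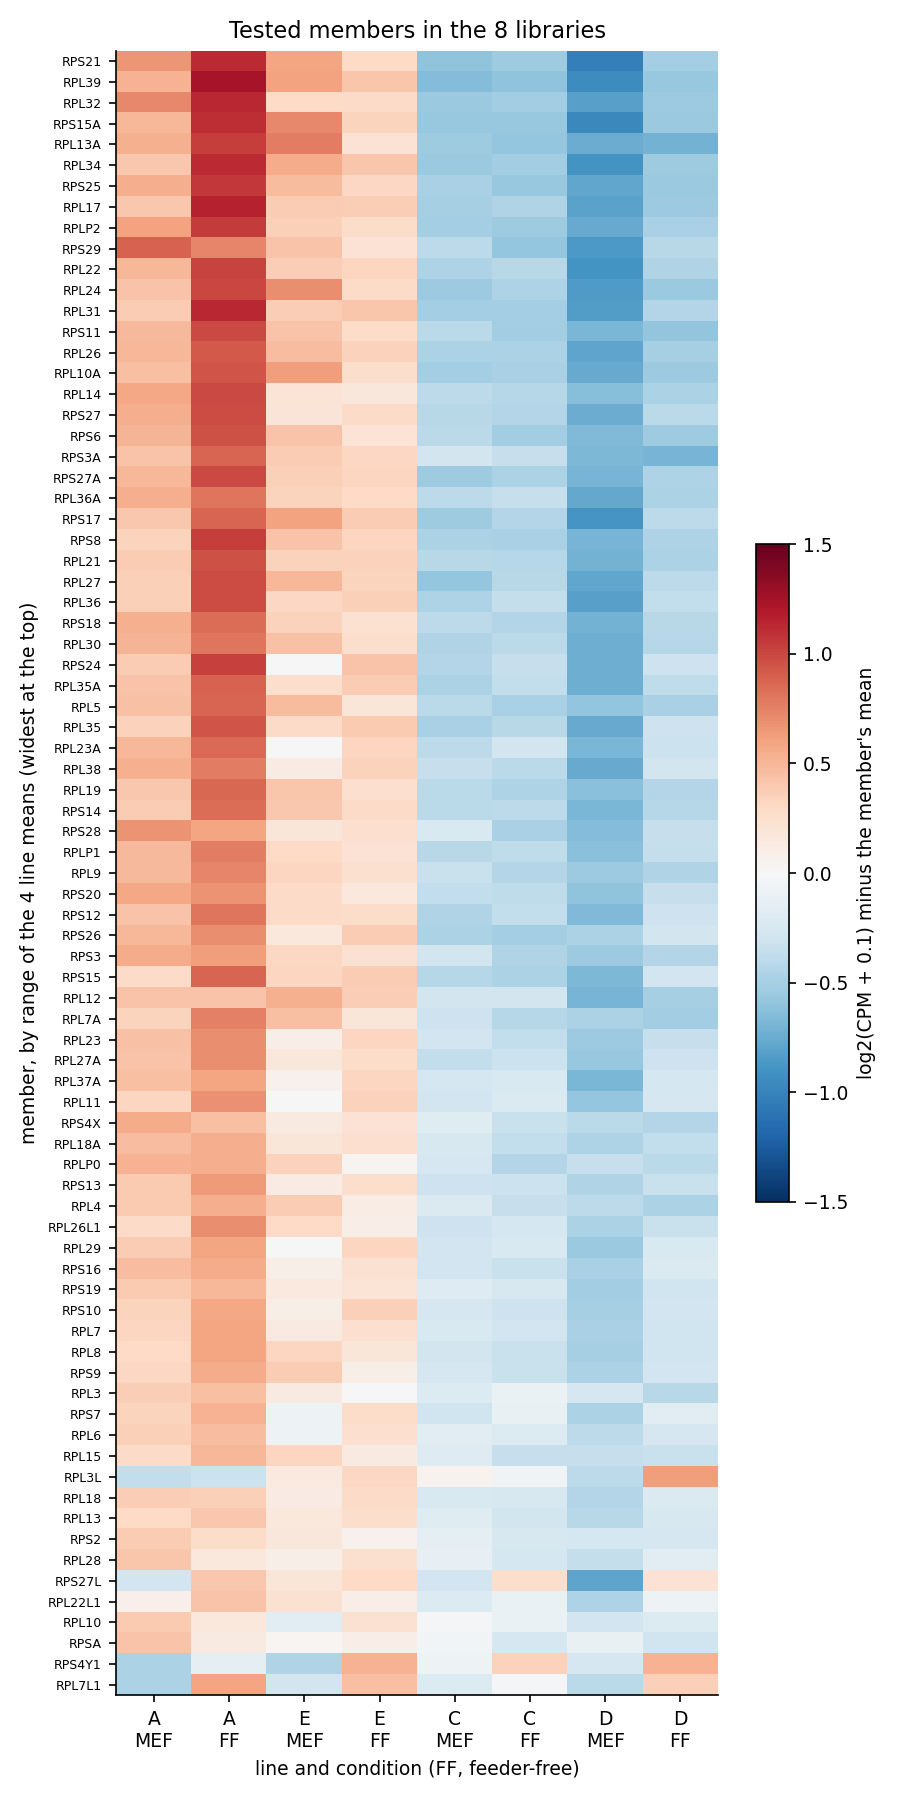
Deviation of tested members (rows) from their own mean over the 8 libraries (columns, ordered by line), as log2(CPM + 0.1), with red above and blue below. Rows run from the widest range between lines, RPS21, to the narrowest, RPL7L1, and the columns of lines A and E are red and those of C and D blue for nearly all rows of core members.

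**Figure D4:**
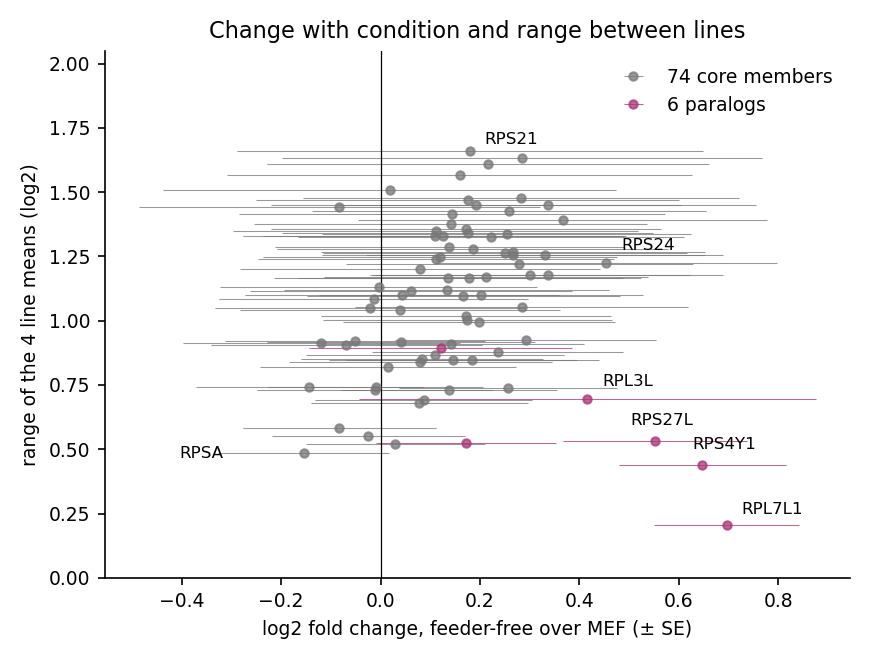
Log2 fold change of each tested member, feeder-free over MEF, with its standard error (x axis), against the range of its 4 line means in log2 units (y axis). Core members (grey) spread from 0.49 to 1.66 on the y axis near 0 on the x axis, while the paralogs RPL7L1, RPS4Y1 and RPS27L (magenta) stand at 0.55 to 0.70 on the x axis with ranges of at most 0.53.

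The line term was called for 57 to 72 members when each library was left out in turn, beside 5.60 to 18.4% of all genes, and for 74 by DESeq2, which called 24.7% of all genes. In a fit on line alone it was called for 22 members, beside 1.27% of all genes. Of the 80 members, 70 were in the fifth of tested genes with the shortest span on the genome (53 to 6773 bp). The other genes with so short a span had median deviations between -0.12 and 0.19 log2 units in the 8 libraries. Those of the members ran from -0.65 in line D on MEF to 0.75 in line A feeder-free. The other genes were not matched to the members on level or transcript length, whose part was not tested. With a correction for gene span, 65 members and 11.4% of all genes were called. RNA quality was not measured in these files. Span overlaps with other annotated genes were found for 10 tested members, among them RPS6, RPS14, RPLP0 and RPSA, and 9 of the 10 were called between lines.

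Ribosomal proteins whose symbols fall outside the rule behaved alike in order. FAU, whose product is cleaved to RPS30, and RPL36AL, a copy of RPL36A, were called between lines (1.85-fold and 1.91-fold, highest in A and lowest in D), while RACK1, a scaffold on the small subunit, was not (adjusted p = 0.205). None of the 4 genes of this list was called between conditions at the fold threshold, in either edgeR fit. Unpaired, 0 of them had an unadjusted p under 0.05, beside 21.6% of all genes. In the paired fit RPL36AL was higher feeder-free at 0.40 (adjusted p = 0.0348), short of the fold threshold. Of all genes, 7.67% were higher at that adjusted p alone.

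Elongation factors followed in part. Of 15 genes listed for elongation and termination, 7 (46.7%) were called between lines, beside 11.8% of all genes. TPT1 and NACA, which are not themselves elongation or termination factors, were among the 7. EEF1B2, a subunit of the factor that reloads EEF1A with GTP, was highest in A and lowest in D with a range of 2.82-fold (adjusted p = 0.00610), and EEF1A1, which delivers tRNAs, EEF1G, TPT1 and NACA also had their highest line mean in A. EEF1A2, the form typical of muscle and neurons, was highest in E, and the termination factor GSPT1 in D. Between conditions 0 of 15 passed unpaired, with 2 (13.3%) at an unadjusted p under 0.05, beside 21.6% of all genes. EEF2, the translocase, had a log2 fold change of -0.46 and an adjusted p of 0.0158 in the paired fit, short of the fold threshold, and EEF1A2 passed it at 0.68 (adjusted p = 0.0497). The paired fit thus called 1 of 15 (6.67%) higher and 0 lower, beside 5.52% and 4.53% of all genes.

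Of 30 initiation factors tested, 7 (23.3%) were called between lines, beside 11.8% of all genes, with EIF1AX, EIF2S3, EIF3E and EIF3M highest in A and EIF4G1 and EIF5B in D. In the paired fit EIF4B, a helicase cofactor, was lower feeder-free with a log2 fold change of -0.61 (adjusted p = 0.00785), and EIF6, which keeps new large subunits from joining early, had 0.58 (adjusted p = 0.0158), just short of the fold threshold. The paired fit called 0 of 30 higher and 1 lower, beside 5.52% and 4.53% of all genes. Neither EIF4B nor EIF6 passed unpaired, where 0 of 30 were called and 8 (26.7%) had an unadjusted p under 0.05, beside 21.6% of all genes.

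Ribosome biogenesis factors ran against the core between lines. Of 52 tested, 33 (63.5%) had their highest line mean in D and 37 (71.2%) their lowest in A, beside 30.4% and 29.6% of all genes. The line term was called for 15 (28.8%), beside 11.8% of all genes. UTP20 and NOL6 of the small subunit processome and the kinase RIOK1 were highest in D and lowest in A, by 2.26-fold, 2.40-fold and 2.55-fold (adjusted p = 0.00529, 0.0118 and 0.00923). Between conditions their median log2 fold change was 0.24, with 40 of 52 (76.9%) above 0, beside 50.6% of all genes. Only NOP16, a nucleolar protein, passed unpaired, at 0.80 ± 0.13 (SE, adjusted p = 0.0331). The paired fit called 6 (11.5%) higher and 0 lower, beside 5.52% and 4.53% of all genes. The 6 were NOP16, LTV1, PPAN, GAR1, NHP2 and GNL3, with log2 fold changes from 0.59 to 0.88.

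Of 17 genes of RNA polymerase I, which transcribes the rRNA precursor, and its factors, 4 (23.5%) were called between lines, beside 11.8% of all genes, with POLR1B highest in D and POLR1D in A. Between conditions 0 of the 17 were called unpaired. The paired fit called 2 (11.8%) higher and 0 lower, beside 5.52% and 4.53% of all genes. MYC, a driver of ribosome production, and the initiation factor subunit TAF1B passed the paired fit at 0.86 and 0.76 (adjusted p = 0.0455 and 0.0211). Of 21 genes that control mTOR or ribosomal protein mRNAs, 2 (9.52%) were called between lines, a share below that of all genes. They were LARP1, which binds the 5′ tract and was highest in D and lowest in A (1.55-fold, adjusted p = 0.0477), and CNBP. EIF4EBP2, a repressor of the cap-binding protein, was lower feeder-free at -0.71 (adjusted p = 0.0414), the 1 gene of this list that passed unpaired. Of all genes, 1.00% were lower by that rule. The paired fit called 2 of the 21 (9.52%) higher and 1 lower, beside 5.52% and 4.53% of all genes. In this fit EIF4EBP1, a paralog of EIF4EBP2, was higher at 0.64 (adjusted p = 0.00887) and so was AKT1S1, an inhibitor of mTOR, at 0.72 (adjusted p = 0.0294).

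**Figure D5:**
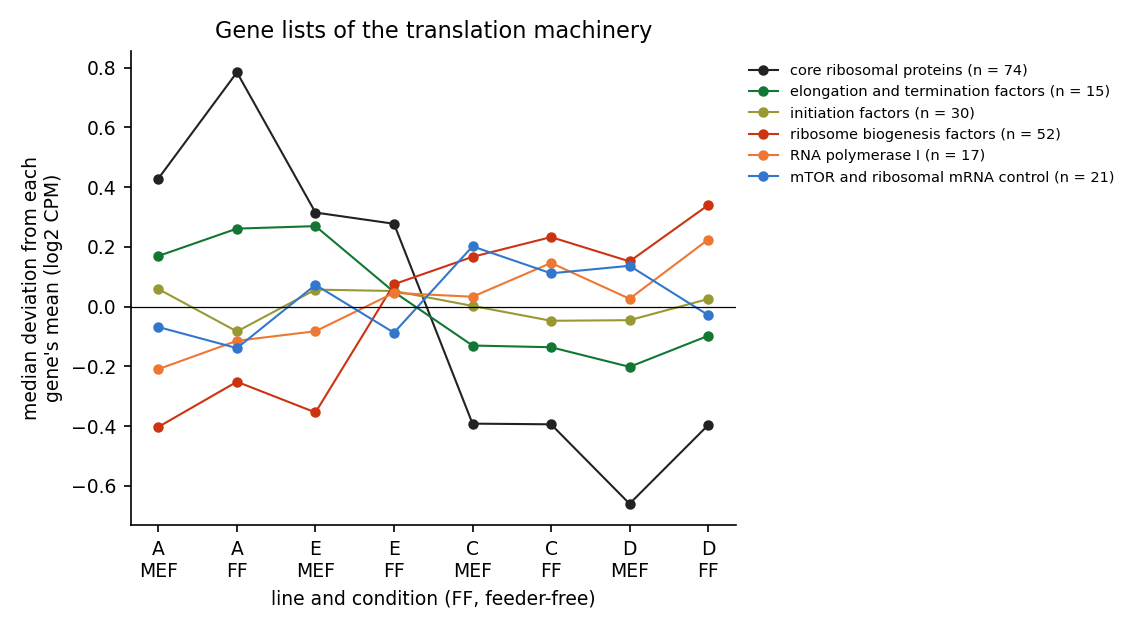
Median deviation of 6 gene lists from each gene's own mean (y axis, log2 CPM) in the 8 libraries (x axis, by line and condition). The core ribosomal proteins run from 0.78 in line A feeder-free to -0.66 in line D on MEF, and the biogenesis factors from -0.40 in line A on MEF to 0.34 in line D feeder-free. The joining lines guide the eye and carry no order.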

How the data were processed

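RNA of 8 bESC libraries was sequenced. Trimmed reads (Trimmomatic) were mapped with STAR to the bovine assembly ARS-UCD2.0, filtered with Picard and samtools (mapping quality of at least 30) and counted with featureCounts of Subread 1.6.2, per the methods and the submitters' processing notes. The authors deposited raw counts per gene. They describe subtracting reads of a pure MEF sample from libraries on MEF. Whether the deposited counts include this step is not known here, and its part in the differences between conditions was not tested. They give RNeasy kits in the methods but Trizol in the records. Strand was not given in the sources used here. Of 32640 genes 3 had no values. No libraries of a condition were duplicates (smallest chi-square per degree of freedom 40.8).

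Counts were tested with edgeR 4.0.16 in R 4.3.3 (filterByExpr, TMM, quasi-likelihood F test, Benjamini-Hochberg over 15744 genes) on condition alone. The study names edgeR without batch correction and gives no model formula. Calls needed an adjusted p under 0.05 and a change of 1.5-fold or more. The same lines were cultured both ways, so line pairs the libraries: deviations from condition means correlated at 0.421 to 0.664 within lines and -0.523 to 0.250 between them. P-values of the fit on condition alone measure the spread between 4 lines. Those of the paired fit and of the F test of the line term rest on the spread left after line and condition are fitted. Log2 CPM used a prior count of 2. The fits were tested on simulated counts. Gene positions and spans came from RefSeq, in which all 83 members were found. Transcript lengths were not used here, so levels are not per length.

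The members and lists were chosen with earlier results of these data known. Named members were those called in either fit, the 5 highest in CPM, the 5 largest and 5 smallest log2 fold changes at a mean of at least 10 CPM, the paralogs, RPLP0 to RPLP2 and RPSA. Results for some genes are not reported here. Of each other list at most 5 called genes were planned. RPS21, RPL39, RPL32, RPL10, RPL12, RPS26 and RPL28 and the further genes called between lines were named after their values were seen. Other settings were DESeq2's size factors or none, looser and stricter count filters, DESeq2 1.42.0, limma-voom (limma 3.58.1), the replicate block, a gene span correction, no fold threshold and each library left out.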

Additional observations from a re-analysis of the deposited data

Results flagged for a closer look

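The share of counts on mitochondrial genes in line A on MEF, 4.11%, stood apart from the other MEF libraries, which lay between 1.91 and 2.26%. Line A also held the highest ribosomal protein share of that condition, and the part of this in the line differences was not tested. Of 40 groups of 4 libraries examined, 1 stood apart in this way, where chance gives about 2.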

How the results depend on the processing

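The count of members called higher, 1 unpaired, was 0 without scaling, 0 without a filter on low counts and 0 in limma-voom, 2 in DESeq2 (RPL7L1 and RPS4Y1), 3 with the replicate block, 2 with the replicate block and span correction (RPL7L1 and RPS4Y1) and 4 with the replicate block and no fold threshold. Of all 15744 genes, 114 were higher and 158 lower unpaired, 83 and 91 without scaling, and 79 and 150 in limma-voom. DESeq2 gave 695 and 516, the replicate block 869 and 713, and the block with span correction 833 and 642. With the block and no fold threshold 1207 were higher and 1279 lower. Without a filter 73 were higher and 97 lower of 23262. Left out in turn, the libraries gave 0 to 1 members called higher, the 1 being RPS4Y1 without line A feeder-free. That fit called 490 genes in all, and those without any other library at most 6. The count of members called lower was 0 under every alternative run. The median log2 fold change of the members, 0.15, lay between 0.03 with the replicate block and span correction and 0.20 without scaling, and between -0.14 (without line A feeder-free) and 0.33 (without line A on MEF) when libraries were left out. The 72 members that differed between lines became 22 in a fit on line alone and were 65 to 74 under the other settings over all libraries. Of 287 alternatives of named members, 240 kept the direction and side of the threshold, 5 gained a call, 11 lost it, all 11 for RPL7L1, and 31 had the other sign, none of them called. RPL13A was -0.0015 in limma-voom, -0.013 with the replicate block and -0.12 with the replicate block and span correction, and RPL7A was -0.0014 and -0.11 in the last 2. With libraries left out, log2 fold changes ran from -0.44 to 0.30 for RPL13A, -0.27 to 0.20 for RPL7A, -0.14 to 0.24 for RPL26L1, -0.058 to 0.56 for RPL31, -0.30 to 0.064 for RPL4, -0.36 to 0.047 for RPLP0, -0.15 to 0.33 for RPLP1, -0.23 to 0.45 for RPLP2, -0.20 to 0.040 for RPS2, -0.38 to 0.26 for RPS29 and -0.23 to 0.15 for RPS4X. The adjusted p of RPL7L1 ran from 0.000665 to 0.130 over 16 alternatives, that of RPS4Y1 from 0.00734 to 0.178, of RPS27L from 0.0264 to 0.249 and of RPS24 from 0.0262 to 0.862. Depth did not limit the core, whose smallest count was 5676 in a library, and limited RPL3L. The causes were not tested.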

Other observations

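Across the 74 core members, the range between lines was smaller for genes with a higher mean CPM (Pearson's r = -0.43, Spearman's rho = -0.39), and so was the log2 fold change between conditions (r = -0.43, rho = -0.47). With gene span the range had r = -0.07 and rho = -0.06. These are descriptions across genes that share the same 8 libraries, and genes are not independent replicates.

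The ratio of RPS6 to RPL3 counts, a small and a large subunit mRNA, ran from 0.538 in line C to 1.02 in line A, both feeder-free. Small nucleolar RNA genes overlapped the span of 27 of the 83 members.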
